A study of Mus musculus with 4 samples.

Results

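The immunoglobulin loci hold the gene segments of the antibody heavy chain (Igh), the kappa light chain (Igk) and the lambda light chain (Igl). Peaks of chromatin immunoprecipitation sequencing (ChIP-seq) with an antibody against IgD were taken as belonging to them when their summit lay in the annotated span of a locus or in the 1 Mb on either side, with the spans set in mm10 coordinates as chr12:113256204-116009954 for Igh, chr6:67555636-70726754 for Igk and chr16:19061752-19260844 for Igl. This gave 341 of 52003 called peaks, 82 of 11375 in the list called pair 1 and 259 of 40628 in the list called pair 2. The cells were pro-B cells of wild-type mice, sorted from bone marrow as B220+, CD43+ and IgM-. There were 2 anti-IgD libraries and 2 mouse IgG libraries, and each list sets an anti-IgD library against the IgG library of the same number. No age, sex or strain is given in the labels, and separate mice are not stated for the pairs, so the spread between the lists may be technical. A list of called peaks holds no levels of marker genes, so the labelled cell type could not be checked in it.

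Heavy chain assembly starts at the pro-B stage. A D segment is joined to a J segment, a V segment is then joined to the DJ product, and the DNA between the joined segments is cut out. Light chain V and J segments are usually joined later, at the pre-B stage. The constant region genes lie next to the J segments. Ighm encodes the IgM heavy chain and Ighd, just downstream of it, the IgD heavy chain, which mature naive B cells make from the same transcript by alternative splicing. Ighg1, Ighe and the other downstream genes are used after class switching in activated B cells. The V segments carry promoters in which an octamer motif is well known, and enhancers lie near the J segments and beyond the constant genes.

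Of the sequences held in the RefSeq promoter table used here (GRCm38.p6, 250 bases before to 50 after a gene start), those printed below are 4 that a called peak reached, chosen to show the Igh V array, the flanks of Igh and Igk and both lists. The table lists no promoter of an immunoglobulin segment. Gm30996 is a long non-coding RNA gene among the Igh V segments and was reached in pair 2, Siva1 (an apoptosis gene) lies on the constant side of Igh and was reached in pair 2, Foxi3 (a forkhead transcription factor) lies beyond Igkc and was reached in pair 1, and Vmn1r35 (a vomeronasal pheromone receptor) lies beyond the distal Igk V segments and was reached in both lists. Capitals mark the bases inside the called peak and lower case those outside it.
Gm30996, chr12:115407364-115407663, + strand: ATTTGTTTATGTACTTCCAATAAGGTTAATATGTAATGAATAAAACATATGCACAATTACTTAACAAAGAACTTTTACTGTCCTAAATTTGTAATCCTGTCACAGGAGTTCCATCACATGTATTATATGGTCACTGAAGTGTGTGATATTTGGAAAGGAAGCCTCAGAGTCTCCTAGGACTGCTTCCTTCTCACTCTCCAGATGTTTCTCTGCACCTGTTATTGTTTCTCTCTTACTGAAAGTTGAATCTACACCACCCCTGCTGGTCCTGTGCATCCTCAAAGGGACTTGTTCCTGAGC
Siva1, chr12:112644578-112644877, + strand: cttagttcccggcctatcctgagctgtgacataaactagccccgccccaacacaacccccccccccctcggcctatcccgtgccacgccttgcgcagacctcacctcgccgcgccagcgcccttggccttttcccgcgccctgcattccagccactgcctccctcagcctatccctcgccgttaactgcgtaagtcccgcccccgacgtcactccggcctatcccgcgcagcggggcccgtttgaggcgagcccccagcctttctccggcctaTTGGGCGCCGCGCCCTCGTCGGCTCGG
Foxi3, chr6:70956356-70956655, + strand: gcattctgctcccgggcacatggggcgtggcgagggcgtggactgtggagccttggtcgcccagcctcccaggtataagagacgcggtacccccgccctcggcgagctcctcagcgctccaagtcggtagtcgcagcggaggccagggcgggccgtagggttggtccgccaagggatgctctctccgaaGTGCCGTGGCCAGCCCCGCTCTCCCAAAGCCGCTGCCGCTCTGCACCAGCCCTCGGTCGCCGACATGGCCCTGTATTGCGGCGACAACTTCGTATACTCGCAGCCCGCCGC
Vmn1r35, chr6:66679635-66679934, - strand: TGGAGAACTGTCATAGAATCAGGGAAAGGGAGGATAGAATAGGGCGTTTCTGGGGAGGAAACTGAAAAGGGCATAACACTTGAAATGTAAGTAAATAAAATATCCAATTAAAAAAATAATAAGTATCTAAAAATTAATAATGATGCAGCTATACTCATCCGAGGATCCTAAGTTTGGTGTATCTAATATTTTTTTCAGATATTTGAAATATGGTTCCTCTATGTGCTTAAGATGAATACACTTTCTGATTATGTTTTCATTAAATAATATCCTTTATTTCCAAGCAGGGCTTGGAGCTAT
The promoters of Gm30996 and Vmn1r35 lay wholly inside their peaks, while 27 of 300 bases of Siva1 and 111 of 300 bases of Foxi3 did. Peaks also reached promoters not printed here: all 300 bases for the vomeronasal receptor gene Vmn1r38 in pair 1, and 167 bases for Gm30101, beside Siva1 and under the same pair 2 peak. CG dinucleotides numbered 0 in Gm30996, 31 in Siva1, 31 in Foxi3 and 2 in Vmn1r35, where the median of all promoters in the table was 7. The octamer ATGCAAAT was searched on both strands and was in none of the 4 sequences, and it is in 1.74% of all 32851 promoters. The E2F-type sequence TTTGGCGC was likewise in none of the 4, against 0.514% of all promoters. The E-box CANNTG, which reads the same on both strands, was found at 4 places in Gm30996, 1 in Foxi3, 1 in Vmn1r35 and 0 in Siva1, and 72.3% of all promoters hold it.

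The IgD heavy chain gene itself had no called peak. In pair 2 the nearest peak to Ighd (chr12:113407535-113416324) lay 31.8 kb away, on the Ighg3 side, with its summit at 113374796, a fold of 3.51 and a -log10 q of 3.39. In pair 1 the nearest lay 241 kb away, beside Ighv5-8. Fold means anti-IgD fragments over the local background at the summit, as the authors' peak caller gave it, and this holds for every fold here. The nearest peaks to Ighm (chr12:113418826-113422730) were the same 2, at 43.1 kb in pair 2 and 234 kb in pair 1. Both lists thus left the IgD and IgM genes without a peak.

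Among the downstream heavy chain genes, Ighe held the strongest peak of the constant part. It lay inside the gene, which encodes the IgE heavy chain (chr12:113269263-113273248), at 113271051 to 113271704 in pair 2, with a fold of 6.85 and a -log10 q of 15.6. At its summit 30 anti-IgD fragments were solved for (exact Poisson limits at 95% of 20.2 and 42.8) against a local background of 3.53, and it ranked 734 by q in pair 2. These fragment numbers assume that 1 was added to both sides of the fold and that anti-IgD fragments were not scaled. With scaling they would not be counts. Their limits, given in brackets from here on, cover counting error only. The Ighg1 peak (IgG1 heavy chain, chr12:113326541-113330523) was near the lower limit of calling: fold 2.70, -log10 q 1.80 and 9 fragments (4.12 to 17.1), with the summit 1051 bp beyond the gene's higher-coordinate end. The other pair 2 peaks of this part, with summits at 113370554 and 113374796 and folds of 3.78 and 3.51, lay between Ighg3 and Ighd, 9.32 kb and 13.6 kb from Ighg3. From Igha, Ighg2c and Ighg2b the nearest pair 2 peaks lay 10.8, 15.7 and 23.6 kb away. Pair 1 had 0 peaks in the 169 kb of the constant part, and its nearest peak to Ighe was 384 kb away. The Ighe and Ighg1 peaks were therefore seen in a single list.

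Counted over the 3 loci, 2 of 13 constant genes, Ighe and Ighg1, were called in pair 2 (15.4%), meaning that a summit fell no more than 3000 bp from either end, and 0 of 13 were in pair 1. Called in the same way were 14.7% of all annotated genes in pair 2 and 2.92% in pair 1. The pair 2 share is close to that background and is no result about constant genes. None of the 34 D and J segments was called in either list. These parts are short, at 124 kb in Igh, 11.8 kb in Igk and 34.5 kb in Igl, which limits what a count of 0 can show.

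The D and J segments of Igh fell in the longest stretch of that locus without a pair 2 summit. It ran for 458 kb, between the summits at 113374796 and 113832606, and took in Ighd, Ighm, all 24 D and J segments and the 27 V segments nearest to them. The 2 coding genes of the Igh span, Adam6a and Adam6b, were not called in either list. Of 1941 intervals between neighbouring pair 2 summits on chromosome 12, 12 were at least this long (0.618%), and 0.782% were over all chromosomes. Pair 1 had 1 peak inside the stretch, beside Ighv5-8 (113656959 to 113657619, fold 3.46, 12 fragments, 6.20 to 21.0). The longest pair 1 interval in Igh was 1603 kb, from 115432090 to beyond the locus. At least as long were 26 of 551 pair 1 intervals on chromosome 12 (4.72%). No test was made of these lengths, which are given as descriptions.

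Over the whole Igh span, pair 2 had 55 peaks and pair 1 had 3. That was 20.0 peaks per Mb in the span against 16.6 on the rest of chromosome 12 in pair 2, a ratio of 1.21, and 1.09 against 4.87 in pair 1, a ratio of 0.224. The lists thus lay on opposite sides of their own chromosome. In windows of 10 kb, 15.6% of the Igh span held a summit in pair 2, where 13.3% of all windows of the genome did, and 1.09% in pair 1, where 2.96% did. Folds in the span were 2.29 to 7.84 for pair 2, with a median of 3.78 that was the same on the rest of the chromosome. The 3 peaks of pair 1 had folds of 3.46, 2.93 and 2.78. A -log10 q of 5 or more was reached by 22 of the 55 pair 2 peaks (40.0%), against 37.4% on the rest of chromosome 12, and by none of the 3 in pair 1.

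**Figure D1:**
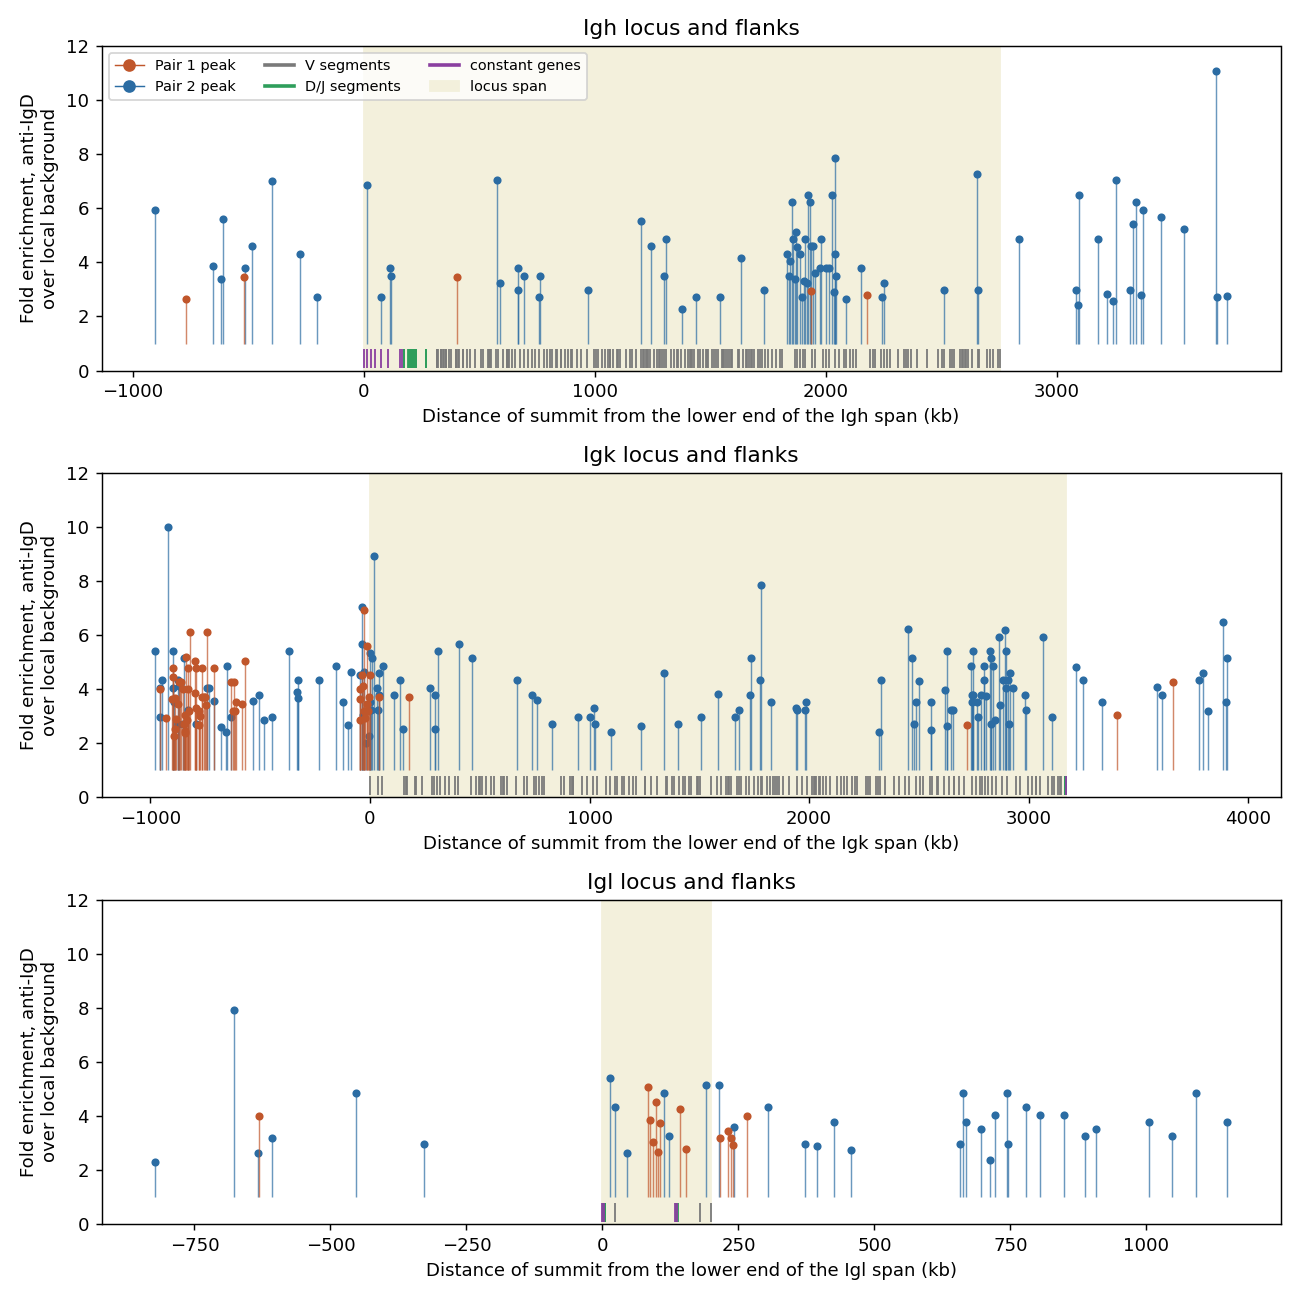
Fold enrichment at each called summit (vertical axis) by its distance from the lower end of the Igh, Igk and Igl spans in kb (horizontal axis), with pair 1 and pair 2 in separate colours, locus spans shaded and V, D/J and constant genes as ticks at the bottom. Pair 1 has 3 summits in Igh and 4 in Igk, against 55 and 86 in pair 2, while Igl holds 8 and 6.

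Pair 2 peaks in the Igh V part were concentrated among the distal V segments of the Ighv1 and Ighv8 families. With summits joined into a run when no more than 25 kb apart, the longest run in the span had 27 of the 51 V-part peaks within 212 kb, from 115086335 to 115298067. Of 22327 runs in pair 2 counting single peaks, 81 had at least as many summits (0.363%). Only 31.2% of these runs had 2 or more summits, so this is a share of runs and not of peaks. Folds in the run ranged from 2.70 to 7.84, with a median of 4.33. Its 11 V segments were Ighv1-50 to Ighv1-57 with Ighv8-6, Ighv8-7 and Ighv8-8 among them. The strongest peak of the whole Igh span lay on Ighv8-8 (115293705 to 115294553, fold 7.84, -log10 q 16.7, 28 fragments, 18.6 to 40.5). The next in fold lay outside the run, 3864 bp from Ighv1-80 (summit 115908480, fold 7.28) and 5665 bp from Ighv5-15 (summit 113832606, fold 7.03). Pair 1 had 1 summit in this run, at 115193419 and 256 bp from Ighv1-54 (fold 2.93, 10 fragments, 4.80 to 18.4), and that peak lay 788 bp from the nearest pair 2 peak.

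**Figure D2:**
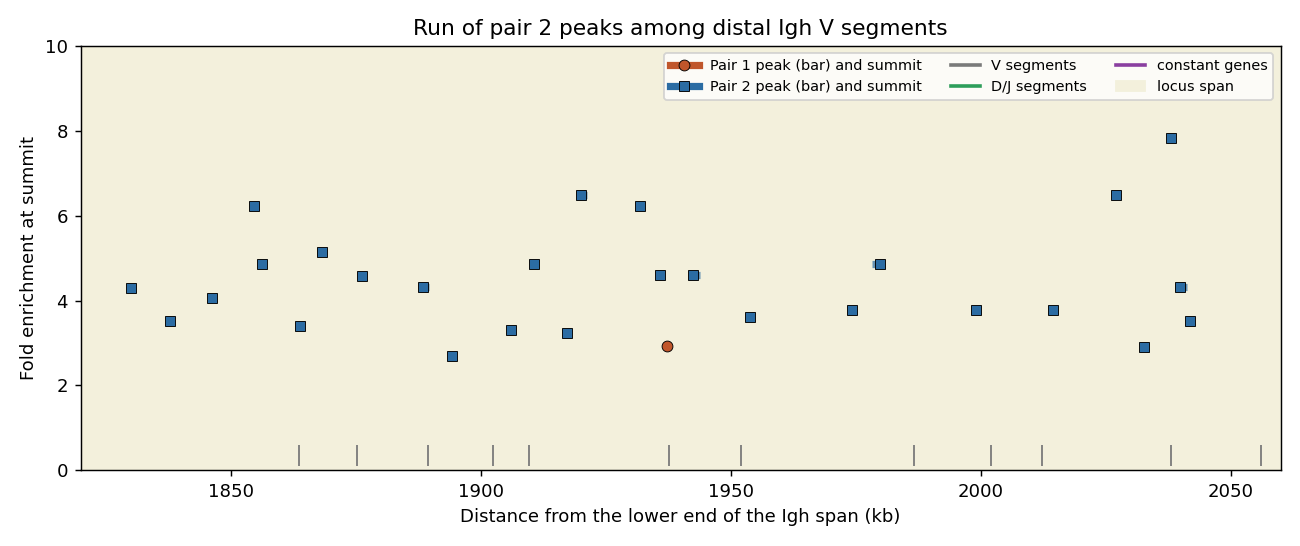
Called peaks (bars) with their summits (circles for pair 1, squares for pair 2) among the distal Igh V segments, by distance from the lower end of the Igh span in kb, with fold enrichment on the vertical axis and V segments as ticks. The 27 pair 2 peaks of the run stand at folds of 2.70 to 7.84, and the pair 1 peak is at 2.93.

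Most peaks of the V part lay between V segments rather than on them. The segments cover little of the 2460 kb of this part, so that count does not show that peaks avoid them. The median distance from a pair 2 summit to the nearest Igh V segment was 3.71 kb, with a range of 0 to 25.7 kb. Summits lay inside 3 V segments, Ighv1-50 (fold 3.40), Ighv8-8 (7.84) and Ighv1-60 (2.65), and a further peak covered part of Ighv1-52 with its summit 805 bp away (fold 4.33). By the same window of 3000 bp, 23 of 184 Igh V segments were called in pair 2 (12.5%) and 2 of 184 in pair 1 (1.09%, Ighv5-8 and Ighv1-54). V segments are short, and of all annotated genes under 1000 bp 10.2% were called in pair 2 and 3.21% in pair 1, so these shares were near or under the background. The called V segments of pair 2 comprised 15 of 121 not annotated as pseudogenes and 8 of 63 pseudogenes. By family, 13 of 92 Ighv1 and 4 of 16 Ighv8 segments were called in pair 2, and 0 of 21 Ighv5 and 0 of 11 Ighv2 segments, which lie toward the D segments. These families were picked after their values were seen, and others ran from 0 of 8 (Ighv3) to 2 of 2 (Ighv4). Neighbouring segments can share a summit, so they are not independent.

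Outside the V part, the highest pair 2 fold near Igh lay beyond the distal V end. A peak inside Ptprn2, which encodes a receptor-type tyrosine phosphatase of secretory vesicles, had a fold of 11.1 at 116945129 (40 fragments, 28.6 to 54.5, rank 22 by q in the list), as high as the highest fold on the rest of chromosome 12. It was 1 of 12 pair 2 summits inside Ptprn2, a very long gene, with folds of 2.55 to 11.1. The next in fold beyond the distal V end was also inside Ptprn2 (summit 116509388, fold 7.03). A peak inside Esyt2, which encodes an extended synaptotagmin, followed with a fold of 6.49. On the constant side, the highest was inside Gpr132, a G protein-coupled receptor gene (fold 7.02, 26 fragments). The Siva1 peak had a fold of 5.59 with 21 fragments (13.0 to 32.1), its summit lying 167 bp downstream of the Siva1 start. Pair 1 had 2 peaks in the flanks, both on the constant side, and the stronger was inside Cep170b (fold 3.46), 6007 bp from a pair 2 peak in the same gene (fold 3.78). The 1 Mb beyond the distal V segments held 18 peaks in pair 2 and 0 in pair 1. The 1 Mb on the constant side held 9 and 2.

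The kappa locus showed the same gap between the lists. Pair 2 had 86 peaks in the Igk span, 27.1 per Mb against 17.9 on the rest of chromosome 6 (ratio 1.52), and pair 1 had 4, 1.26 per Mb against 4.99 (ratio 0.253). All 90 were nearest to V segments. The nearest pair 2 peak to Igkc (chr6:70726435-70726754) lay 46.5 kb away inside Rpia, the ribose 5-phosphate isomerase gene, with a fold of 4.83. In pair 1 it lay 230 kb away, at the Foxi3 start. Windows of 10 kb with a summit made up 19.2% of the span in pair 2 and 1.26% in pair 1. Folds in the span were between 2.43 and 8.92 for pair 2. The 4 peaks of pair 1 had folds of 4.53, 3.70, 3.73 and 2.66 in order of position.

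Within Igk, pair 2 peaks were again clustered. A run of 26 summits within 190 kb (70292586 to 70482884) took in 10 V segments of the Igkv6 and Igkv8 families, from Igkv8-22 to Igkv6-13, with folds of 2.70 to 6.19 and a median of 4.19. Of the runs in pair 2, most of them single peaks, 84 had at least as many summits (0.376%). Pair 1 had 0 summits in the run. Over the locus, 6 of 13 Igkv8 and 4 of 9 Igkv6 segments were called in pair 2, and 8 of these 10 lie in that run. Of all 162 Igk V segments, 25 were called in pair 2 (15.4%), 16 of 102 without and 9 of 60 with a pseudogene annotation, and 2 were called in pair 1 (1.23%). Of all genes under 1000 bp 10.2% were called in pair 2 and 3.21% in pair 1, and of all genes 14.7% and 2.92%. The shares of the Igkv8 and Igkv6 families were above these, but neighbouring segments share summits and the families were picked out after their values were seen. No summit lay inside an Igk V segment, though these too cover little of their part. The peak closest to one had its summit 144 bp from Igkv12-66 (fold 7.84, 28 fragments, 18.6 to 40.5) and covered part of that segment. The next peak in fold lay 5961 bp from Igkv1-35 (summit 70004988, fold 6.22). The longest stretch without a pair 2 summit, 336 kb from 69540627 to 69876219, held 22 V segments, and in pair 1 it was 2542 kb with 133 V segments.

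The distal V edge of Igk was dense in both lists. In pair 1, 13 summits ran from 67508482 to 67557847, 12 of them outside the span and 1 inside it. In pair 2, 17 summits ran from 67510578 to 67614670, with 8 inside the span, beside Igkv2-137, Igkv1-136 and Igkv1-135. Runs with at least as many summits numbered 182 of 3430 in pair 1 (5.31%) and 161 of 22327 in pair 2 (0.721%). Peaks shared at least 1 bp with the other list in 7 of the 13 cases of pair 1 (53.8%) and 8 of the 17 of pair 2 (47.1%), where over the whole lists 27.5% of pair 1 and 6.76% of pair 2 peaks did. The runs were picked out after their peaks were seen, and the difference was not tested. The highest fold in pair 1 was 6.92, at 67526494 (25 fragments, 16.2 to 36.9), which lay 1658 bp from the nearest pair 2 peak. In pair 2 it was 8.92, at 67572858 (32 fragments, 21.9 to 45.2), 14.1 kb from a pair 1 peak. The strongest summits of the lists at this edge were thus in different places.

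**Figure D3:**
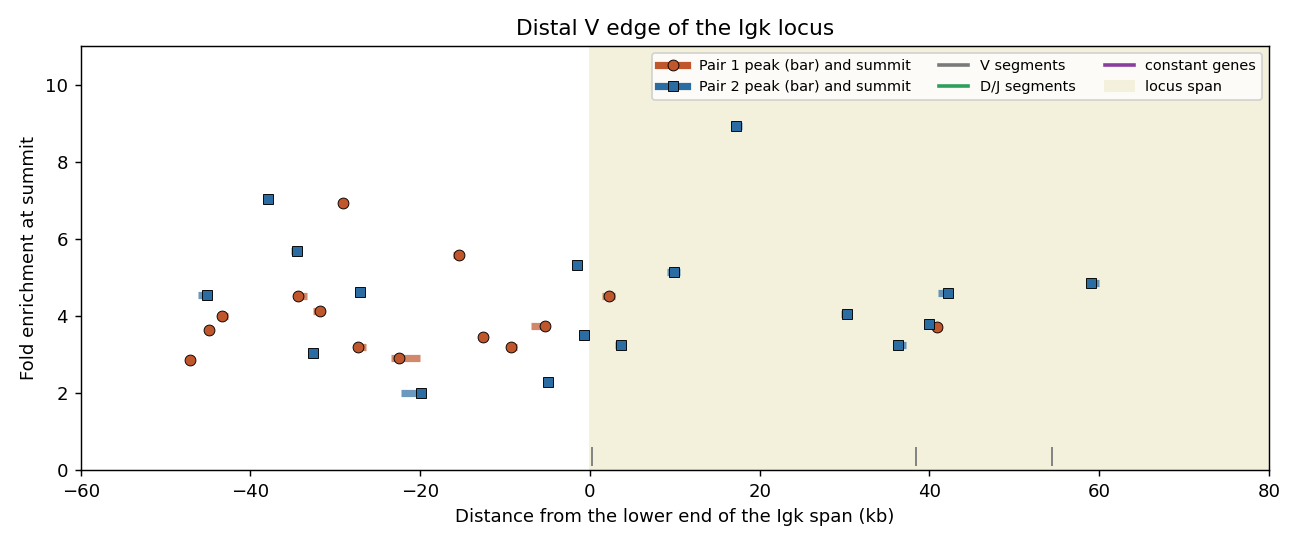
Called peaks (bars) with their summits (circles for pair 1, squares for pair 2) at the distal V edge of Igk, by distance from the lower end of the Igk span in kb, with fold enrichment on the vertical axis, the span shaded and V segments as ticks. The pair 1 run starts 47154 bp outside the span, and the highest folds are 6.92 in pair 1 and 8.92 in pair 2.

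The overlaps at the edge were partial. Inside the span the lists overlapped at 2 places. Beside Igkv2-137 the pair 1 peak (67557046 to 67558547, fold 4.53, 16 fragments) and the pair 2 peak (67558546 to 67559864, fold 3.24, 11 fragments) shared 2 bp, with summits 1458 bp apart. Beside Igkv1-136 the pair 1 peak had a fold of 3.70 and the pair 2 peak one of 4.60, and they shared 445 bp with summits 1330 bp apart. Outside the span, summits lay close together at 67521258 and 67521166 (92 bp apart, folds 4.53 and 5.68) and at 67510724 and 67510578 (146 bp apart, folds 3.64 and 4.53), giving pair 1 before pair 2 each time.

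Further out on this side, pair 1 was dense too. The 1 Mb flank held 57 pair 1 peaks, against 4.99 per Mb on the rest of the chromosome, and 44 pair 2 peaks, against 17.9. Of the pair 1 peaks, 35 formed a run of 160 kb from 66655906 to 66815625 over vomeronasal receptor genes, and 9 of the 35 were 5000 bp or wider, the widest 13576 bp with a fold of 6.12. No other peak of pair 1 near the 3 loci, and none of pair 2, was that wide. Over all assembled chromosomes, 1071 of 11285 pair 1 peaks and 1284 of 40571 pair 2 peaks were 5000 bp or wider. In this vomeronasal run 9 of 35 peaks overlapped a pair 2 peak (25.7%), close to the 27.5% over the whole list. Of 3430 runs in pair 1, 51 had at least as many summits (1.49%). At Vmn1r35, whose promoter is printed above, the pair 1 peak was 5656 bp wide with a fold of 3.46 and 12 fragments, and the pair 2 peak 708 bp wide with a fold of 2.70 and 9 fragments (4.12 to 17.1). The strongest pair 2 peak of this flank lay 2217 bp from Vmn1r34 (fold 10.0, 36 fragments, 25.2 to 49.8), and no pair 1 peak overlapped it.

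The flank on the constant side of Igk held 11 peaks in pair 2 and 2 in pair 1, below the 17.9 and 4.99 per Mb of the rest of the chromosome. In pair 2 a peak lay inside Cd8a, which encodes a T cell co-receptor chain (fold 3.20), and another at Rmnd5a, which encodes a ubiquitin ligase subunit (fold 6.49). The pair 1 peaks lay at Foxi3 (fold 3.06, 18 fragments, 10.7 to 28.4, over a background of 5.21, the summit 247 bp downstream of the start) and 1865 bp from Smyd1, a muscle histone methyltransferase gene (fold 4.26). None of these overlapped between the lists.

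In the lambda locus the lists had similar counts, 8 peaks in the span in pair 1 and 6 in pair 2, although pair 2 was the longer list. The order turned under stricter limits, with 2 in pair 1 and 4 in pair 2 at a -log10 q of 5 or more, and 1 and 2 at a fold of 5 or more. The longest stretch of pair 2 without a summit there, 342 kb ending at 19075064, reached from outside the span over Iglc1 and Iglc3. Of pair 2 intervals on chromosome 16, 1.49% were at least that long. In pair 1 the density was 40.2 peaks per Mb against 1.83 on the rest of chromosome 16 (ratio 22.0), and in pair 2 30.1 against 14.8 (ratio 2.04). In windows of 10 kb, 5 of 19 held a summit in each list (26.3%), where the background over the genome was 2.96% in pair 1 and 13.3% in pair 2. With so few peaks in 199 kb these densities are imprecise, and no test was made of them. On chromosome 16 pair 1 was thinner than over all chromosomes, which had 4.24 peaks per Mb.

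**Figure D4:**
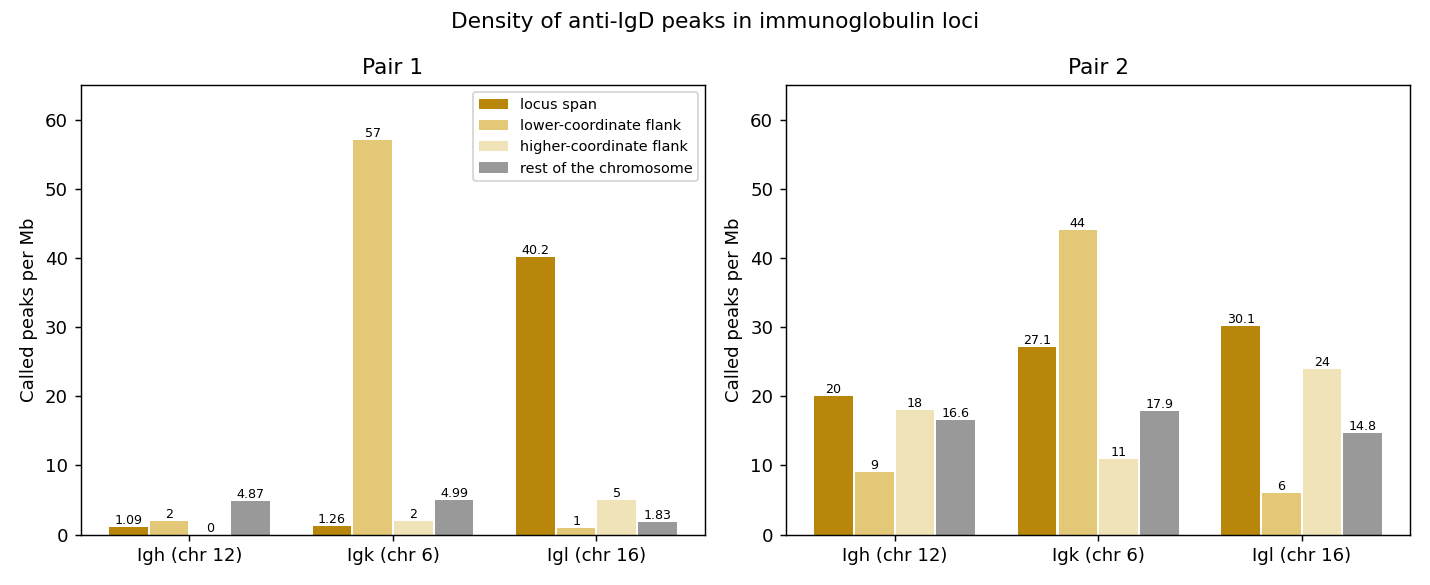
Called peaks per Mb (vertical axis) in each locus span, its 2 flanks of 1 Mb and the rest of the same chromosome, for pair 1 (left) and pair 2 (right), each bar being a single list with no error bar. In pair 1 the Igl span (40.2) and the lower-coordinate flank of Igk (57) stand above the rest of their chromosomes (1.83 and 4.99), while the Igh and Igk spans (1.09 and 1.26) stand below theirs.

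Igl holds its segments in 2 blocks, with Iglc1, Iglc3 and Iglv1 in the lower-coordinate block and Iglc4, Iglc2, Iglv3 and Iglv2 in the other. In pair 1, 6 of the 8 summits formed a run of 21.4 kb (19146100 to 19167489) in the 110 kb between Iglv1 and the pseudogene Iglc4, at and beside the pseudogene Gm18748. Runs with at least as many summits were common in pair 1, at 352 of 3430 runs counting single peaks (10.3%). In order of position the folds of these 6 summits were 5.06, 3.87, 3.04, 4.53, 2.66 and 3.73, with 9 to 18 fragments each. The other 2, at 19203771 (fold 4.26) and 19215369 (fold 2.78), lay between Iglj2 and Iglv3. In pair 2 the summits lay at 19075064 (fold 5.41, between Iglj3 and Iglv1), 19084203 (fold 4.33, 814 bp from Iglv1), 19106741 (fold 2.64), 19174883 (fold 4.87), 19184693 (fold 3.24) and 19251945 (fold 5.14, between Iglv3 and Iglv2). Of these pair 2 summits, 3 also lay between Iglv1 and Iglc4. No peak overlapped between the lists in the span, and the closest approach was 6.33 kb, between the pair 1 peak at 19167489 and the pair 2 peak at 19174883.

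By nearest segment, the pair 1 peaks of Igl belonged to the constant part (6) and the D/J part (2), and the pair 2 peaks to the V part (3), the D/J part (1) and the constant part (2). That assignment says little here, as the 6 pair 1 peaks assigned to the constant part lay 27.5 to 48.9 kb from Iglc4. The only segment with a summit within 3000 bp was Iglv1, in pair 2. The constant genes Iglc1, Iglc2 and Iglc3 had their nearest peaks at 12.3, 13.4 and 8.72 kb in pair 2 and at 83.9, 4.32 and 80.3 kb in pair 1.

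**Figure D5:**
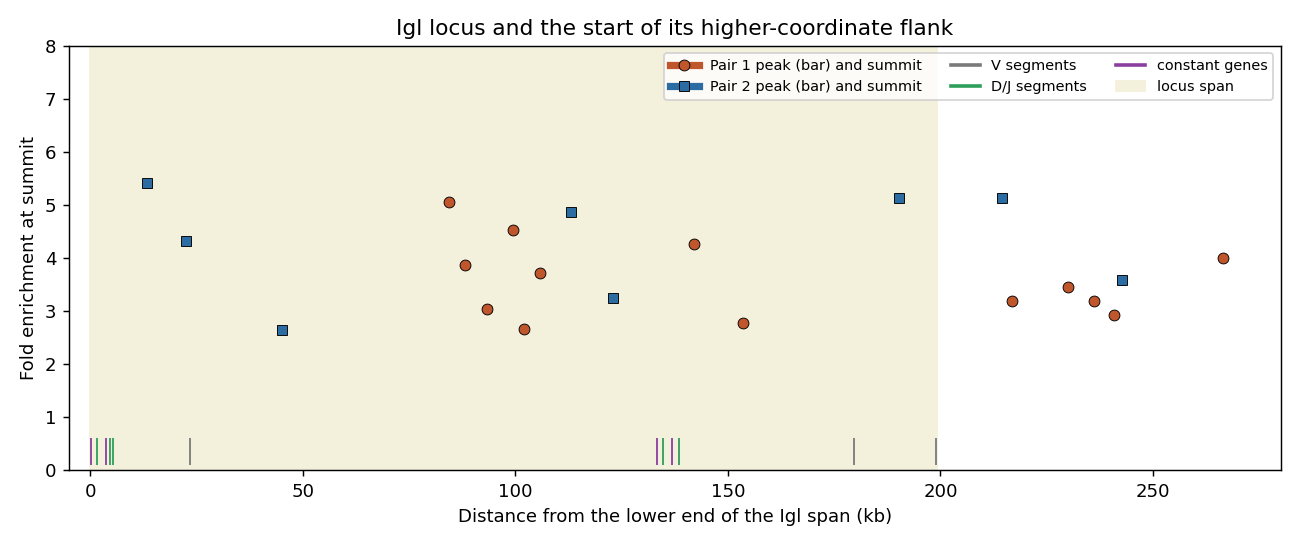
Called peaks with their summits (circles for pair 1, squares for pair 2) across the Igl span and the start of its higher-coordinate flank, by distance from the lower end of the span in kb, with fold enrichment on the vertical axis, the span shaded and V, D/J and constant genes as ticks. Between the segment blocks, from Iglv1 to Iglc4, pair 1 has 6 summits at folds of 2.66 to 5.06. Pair 2 has 3 summits there at folds of 2.64 to 4.87, and none coincides with those of pair 1.

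Around Igl, the flank beyond Iglv2 held 24 peaks in pair 2 and 5 in pair 1, and the flank beyond Iglc1 held 6 and 1. The single overlap between the lists was inside Txnrd2, the mitochondrial thioredoxin reductase gene, where the pair 1 peak had a fold of 3.99 and the pair 2 peak one of 2.63. Each summit solved to 14 fragments, 244 bp were shared and the summits lay 652 bp apart. The 5 pair 1 peaks beyond Iglv2 were 17658 to 67263 bp from Iglv2, with folds of 2.93 to 3.99, and the 2 nearest to it lay beside Olfr164, an odorant receptor gene. In pair 2 the highest fold near Igl was 7.92, inside Arvcf, an armadillo-repeat protein gene. Klhl6, which encodes a Kelch-like protein of B cells, and B3gnt5, a glycosyltransferase gene, were called in pair 2, with folds of 3.24 at Klhl6 and 3.54 and 2.39 at B3gnt5, and not in pair 1.

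The coding genes of the 6 flanks were counted together. Of 101, 17 were called in pair 2 (16.8%), where 16.8% of all protein-coding genes were, and 8 in pair 1 (7.92%), where 2.87% of all were. In pair 1, 6 of the 8 lay in the lower-coordinate flank of Igk, among them the vomeronasal receptor genes Vmn1r35, Vmn1r36, Vmn1r37, Vmn1r38 and Vmn1r39. Vmn1r35 and Vmn1r37 were among the genes called in both lists. In pair 2, none of the 6 coding genes beyond the distal Igh V segments was called, although 18 peaks lay there, 12 of them inside Ptprn2 but over 3000 bp from its ends.

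Taking the 3 loci with their flanks, overlap with the other list was found for 19 of 82 peaks of pair 1 (23.2%) and 21 of 259 of pair 2 (8.11%), against 27.5% and 6.76% over the whole lists. These shares are near the background. Inside the spans the counts were 2 of 15 in pair 1 (13.3%) and 2 of 147 in pair 2 (1.36%), both at the distal edge of Igk. In Igh with its flanks the overlap was 0 of 5 and 0 of 82. For 3 pair 1 peaks, all in the lower-coordinate flank of Igk, a pair 2 summit lay no more than 200 bp away, the closest being 16 bp apart at 66598025 and 66598041.

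The local background at the summits, solved from fold and p-value, was compared with that of all peaks. It was above the commonest level of its list in 15 of 55 pair 2 peaks of the Igh span (27.3%), 16 of 86 of Igk (18.6%) and 1 of 6 of Igl, against 29.6% of all pair 2 peaks. In pair 1 it was so in 1 of 3, 1 of 4 and 3 of 8, against 22.3% of all pair 1 peaks. In the lower-coordinate flank of Igk it was raised in 21 of 57 pair 1 peaks (36.8%) and 16 of 44 pair 2 peaks (36.4%), against 23.7% and 30.6% on the rest of chromosome 6. The median summit in the spans solved to 10 fragments in Igh, 13.5 in Igk and 14 in Igl in pair 1, and to 13, 13 and 16 in pair 2. At these depths a region without a peak cannot be said to lack anti-IgD signal, as depth per library is not known from the lists.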

How the data were processed

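ChIP-seq libraries of sorted pro-B cells, 2 with anti-IgD and 2 with mouse IgG, were grouped by the labels' antibody. Per the submitters' processing notes, HISAT2, MACS2, ChIPseeker and mm10 were used. Their versions and settings are not known here. The authors deposited 1 narrowPeak list per pair, called on single pairs and not on pooled libraries, with a fold (the ratio over background at the summit), -log10 p and -log10 q. Deposited -log10 q values started at 1.31 (pair 1) and 1.30 (pair 2).

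Summits were placed by start plus offset, in 1-based coordinates. A summit in a span was given to the class (V, D/J or constant) of the nearest segment in the RefSeq gene table (GRCm38.p6, 49595 genes used, 402 on other sequences left out). That table gives no strand or exons, so windows of 3000 bp were set around either end of a gene. Fragments were solved from fold and p-value, and for all 341 peaks the -log10 p so recovered was within 0.01 of the one the authors gave. Peaks were shared with at least 1 bp of overlap. No test was run: each list is a single comparison, and counts stand beside the same counts over the chromosome or genome. Members and lists were chosen with earlier results of these data known. Named were all constant genes, segments overlapped by a peak that was among the 3 highest folds of its locus and list or overlapped the other list, and flank genes called in both lists or at the 3 highest folds of a flank and list. Not every gene under that last rule is named, and at least 1 result is not reported here. Other segments, flank genes, families and runs were named after their values were seen. The routines were tested on simulated data. Alternatives were stricter q and fold thresholds, width, overlap, flank and window sizes and equal list lengths. Tables were handled with pandas 2.3.3 and numpy 2.4.6 under Python 3.11.15, intervals with scipy 1.17.1 and plots with matplotlib 3.10.9.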

Additional observations from a re-analysis of the deposited data

How the results depend on the processing

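Of 39 alternatives, 16 left a count within 1.5 times its value. Counts in the spans were the same with peaks narrower than 5000 bp and when any base of a peak, not its summit, was required to lie in the span. With -log10 q held to 5 or more, pair 1 kept 0 peaks in Igh, 1 in Igk and 2 in Igl, and pair 2 kept 22 in Igh, 34 in Igk and 4 in Igl. At a fold of at least 5, pair 1 kept 0, 0 and 1, and pair 2 kept 10, 17 and 2. Under both limits pair 2 then had more peaks than pair 1 in Igl, where it had fewer without them. With pair 2 cut to the 11375 peaks of pair 1, its counts were 18 in Igh, 23 in Igk and 3 in Igl, so with equal lengths the order of the lists was as reported in all 3 loci. The 19 overlapping pair 1 peaks became 2 with 50% reciprocal overlap, 3 with summits within 200 bp, 2 under that q limit in each list, 8 with flanks of 500 kb and 5 with equal list lengths. The 2 constant genes called in pair 2 became 0 at a window of 1000 bp, as the Ighe summit lies deeper inside its gene than that, 4 at 10000 bp and 1 (Ighe) under the q limit, and the 0 of pair 1 became 2 at 10000 bp. The alternatives changed the number of peaks, the windows or flanks, or, for 50% reciprocal overlap and summits within 200 bp, the rule for a shared peak. No paired analysis was possible because each list already compares a single anti-IgD library with a single IgG library. For the same reason leaving out a replicate gives the other list, whose counts are printed in full. Few fragments per summit limit the precision of every fold.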
